A study of Mus musculus with 15 samples.

Results

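Ly6e, Rtn4, Mfge8 and Abhd2 are 4 genes with higher RNA levels in diploid than in tetraploid mouse hepatocytes. They were selected on these same libraries, as well measured genes that were higher in the 2n-whole population than in each of the 4n populations and that are not landmarks of liver zonation, and the rule states no numerical limit. They are 4 of the 55984 gene symbols in the deposited counts, and all 4 are among the 17488 genes that passed the filter on low counts. Their difference from 2n-whole is therefore described here without a test, while the differences among the 4n populations, which the selection did not use, were tested.

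The study asked how tetraploid hepatocytes with one nucleus and with a pair of nuclei differ in gene expression. Hepatocytes were isolated from adult male WT mice of strain C57BL/6JJcl and sorted live by the fluorescence of Hoechst dye, which reports DNA content. The 2n-whole population is the diploid gate and the 4n-whole population the tetraploid gate. The 4n-top and 4n-bottom populations are the parts of the tetraploid gate with higher and lower Hoechst peak height. The study counted nuclei under the microscope and found 4n-top enriched for mononucleated and 4n-bottom for binucleated cells. Neither is pure, and 4n-top cells came from a single round of sorting. Each library came from the RNA of 1 mouse. Mice 1 to 4 gave libraries of 2n-whole, 4n-whole and 4n-bottom, and mice 2, 3 and 4 gave libraries of 4n-top, 15 libraries in all.

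In the adult mouse liver, many hepatocytes become polyploid around weaning, first by failing to divide the cell after the nucleus has divided and later also by doubling the genome inside a single nucleus. Hepatocytes also differ along the lobule, with periportal cells near the incoming blood and pericentral cells near the central vein carrying different enzymes. The genes described here encode proteins of unrelated kinds. Ly6e encodes a small GPI-anchored surface protein of the LY6 family that is induced by interferon. Rtn4 encodes reticulon 4 (Nogo), which bends the membrane of the tubular endoplasmic reticulum and, in neurons, limits axon growth. Mfge8 encodes a secreted glycoprotein that binds phosphatidylserine on dying cells and integrins on the cells that take them up. Abhd2 encodes a membrane-bound hydrolase of the alpha/beta-hydrolase domain family that cleaves monoacylglycerols, among them the endocannabinoid 2-arachidonoylglycerol.

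In build GRCm39 with the GENCODE M39 annotation, Ly6e (ENSMUSG00000022587.17) lies on the plus strand at chr15:74826860-74847454. Rtn4 (ENSMUSG00000020458.18) lies on the plus strand at chr11:29642313-29694331. Mfge8 (ENSMUSG00000030605.17) lies on the minus strand at chr7:78783515-78798825 and Abhd2 (ENSMUSG00000039202.14) on the plus strand at chr7:78922947-79015256. Mfge8 and Abhd2 are therefore neighbours whose starts face away from each other, with 124.1 kb between the gene bodies and no other protein-coding gene annotated in between. The counts are of whole genes, introns and isoforms not being told apart.

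The promoter windows of 3 of the 4 genes are shown as a description, 2 of these genes being divergent neighbours. That the genes move together across the sorted populations follows in large part from their selection, and shared control was not tested. They were taken from RefSeq in build GRCm38.p6, an older build than that of the counts, and run 5′ to 3′ in the direction of the gene over 300 bases around the annotated start. Capitals mark the GC box GGGCGG and the CCAAT box CCAAT, searched on either strand, so that CCGCCC and ATTGG mark the same motifs on the other strand. No entry for Ly6e was used. For Rtn4, which has 3 annotated starts in the table, the most upstream is shown. In the order listed, the windows are chr11:29692648-29692947 on the plus strand, chr7:79149011-79149310 on the minus strand and chr7:79273016-79273315 on the plus strand.
Rtn4: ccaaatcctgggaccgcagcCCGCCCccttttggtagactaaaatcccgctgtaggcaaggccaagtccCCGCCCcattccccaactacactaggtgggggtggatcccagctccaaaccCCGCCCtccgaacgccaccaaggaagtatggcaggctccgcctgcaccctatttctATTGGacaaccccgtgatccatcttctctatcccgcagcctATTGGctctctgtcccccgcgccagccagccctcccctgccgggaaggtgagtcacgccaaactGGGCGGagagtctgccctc
Mfge8: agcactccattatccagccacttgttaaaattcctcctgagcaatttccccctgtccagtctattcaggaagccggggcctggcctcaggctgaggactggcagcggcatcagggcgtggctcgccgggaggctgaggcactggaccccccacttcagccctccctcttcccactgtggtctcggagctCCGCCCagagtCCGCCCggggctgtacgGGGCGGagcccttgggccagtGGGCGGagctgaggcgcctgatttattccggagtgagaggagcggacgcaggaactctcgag
Abhd2: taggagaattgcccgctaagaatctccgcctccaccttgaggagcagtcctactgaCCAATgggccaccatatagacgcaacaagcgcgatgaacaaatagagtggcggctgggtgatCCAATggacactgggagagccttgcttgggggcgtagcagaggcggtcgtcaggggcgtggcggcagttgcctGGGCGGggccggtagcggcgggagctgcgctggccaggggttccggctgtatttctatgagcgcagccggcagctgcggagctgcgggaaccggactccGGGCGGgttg

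The windows of Rtn4, Mfge8 and Abhd2 are rich in G and C, with 62.3%, 64.3% and 64.0% of bases, against a median of 53.0% over 32544 windows of the same length. They hold 15, 17 and 24 CpG dinucleotides, against a median of 7. The other Rtn4 windows differ, the middle one with 75.3% G and C, 35 CpG and 1 GC box, and the most downstream one with 39.7%, 1 CpG and 0 matches to any motif searched. The GC box occurs 4 times in the Rtn4 window, 4 times in the Mfge8 window and 2 times in the Abhd2 window, and 35.9% of all windows hold at least 1. The CCAAT box occurs 2 times in the Rtn4 and 2 times in the Abhd2 window and was not matched in that of Mfge8, while 37.4% of all windows hold it. None of the 3 windows holds the TATA box TATAAA (in 13.6% of all windows) or the E-box CACGTG (in 7.2%). The Rtn4 window holds 1 match to the AP-1 motif TGANTCA (in 7.8%) and 1 to the TEAD motif GGAATG (in 14.6%), and the other two windows hold neither. Such matches describe the letters of these windows and were not tested for any role.

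Total counts ranged from 22049498 to 42096421 per library, and 3 counts, taken as the lowest detectable level, correspond to between 0.0713 and 0.136 CPM (counts scaled to a common library total). The genes described were well above it, with counts from 61 to 551 for Mfge8, 564 to 2945 for Rtn4, 1874 to 7546 for Ly6e and 2704 to 11140 for Abhd2. The summed CPM of 9 hepatocyte markers, mostly Alb, was between 103000 and 111000 in 2n-whole and between 86500 and 119000 in the 4n libraries. Of these 9 markers, 1 was called lower in 4n-whole, the protease inhibitor gene Serpina1c (-0.83 ± 0.14, adjusted p = 0.000541), and Apob had -0.42 ± 0.09 (adjusted p = 0.006298). In 4n-whole against 2n-whole 607 genes (3.47% of those tested) were called, with an adjusted p below 0.05 and a log2 fold change of more than 0.5 in either direction. In 4n-bottom against 2n-whole there were 81 (0.463%) and in 4n-top against 2n-whole 168 (0.961%). Without the mouse as a block these counts were 40, 0 and 2, and the fold changes of the genes described here were close to the same.

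Ly6e was highest in 2n-whole, with 186, 207, 124 and 175 CPM (scaled by TMM) in mice 1 to 4. In 4n-whole the same mice had 96.5, 98.6, 57.9 and 64.7 CPM. In 4n-bottom they had 116, 142, 69.4 and 93.7 CPM, and in 4n-top mice 2, 3 and 4 had 119, 73.2 and 67.2 CPM. The populations overlapped between mice, since the 2n-whole library of mouse 3 (124 CPM) was below the 4n-bottom library of mouse 2 (142 CPM). Within each mouse every 4n library was below the 2n-whole library, at 36.9% to 68.4% of its level, in 11 of 11 pairs. The fitted log2 fold change against 2n-whole was -1.14 ± 0.10 (standard error) in 4n-whole, -0.75 ± 0.10 in 4n-bottom and -0.95 ± 0.11 in 4n-top. Bulk RNA of sorted cells cannot tell apart fewer cells with the transcript and less of it per cell, and CPM gives a share of the library's RNA rather than an amount per cell.

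Rtn4 showed no overlap between 2n-whole and 4n libraries, which its selection on these same libraries favours. Its level was 62.7, 60.0, 50.8 and 84.6 CPM in the 2n-whole libraries of mice 1 to 4. It was 28.1, 23.5, 24.2 and 28.0 CPM in 4n-whole and 40.4, 28.6, 25.8 and 44.4 CPM in 4n-bottom. In 4n-top, mice 2, 3 and 4 had 30.1, 22.0 and 26.5 CPM. The highest 4n library, 4n-bottom of mouse 4 at 44.4 CPM, was below the lowest 2n-whole library at 50.8 CPM. Within mice the 4n libraries held 31.3% to 64.5% of the 2n-whole level. The log2 fold change against 2n-whole was -1.29 ± 0.12 in 4n-whole, -0.90 ± 0.12 in 4n-bottom and -1.24 ± 0.14 in 4n-top.

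Mfge8 had the lowest counts and the largest fold differences of the 4 genes. The 2n-whole libraries of mice 1 to 4 had 11.6, 15, 11.1 and 15.8 CPM, and the 4n-whole libraries 1.65, 3.41, 3.2 and 5.22 CPM. The 4n-bottom libraries had 2.97, 5.76, 3.30 and 6.75 CPM and the 4n-top libraries of mice 2, 3 and 4 had 4.55, 2.38 and 3.03 CPM. No 4n library reached the 2n-whole range, whose lower end of 11.1 CPM stood above the highest 4n value of 6.75 CPM. Such a gap is also favoured by the selection. Within mice the 4n libraries held 14.3% to 42.6% of the 2n-whole level. The log2 fold change was -2.07 ± 0.22 in 4n-whole, -1.59 ± 0.22 in 4n-bottom and -2.21 ± 0.26 in 4n-top.

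Abhd2 had the highest CPM of the 4 genes. Mice 1 to 4 had 239, 195, 269 and 320 CPM in 2n-whole, and 109, 108, 147 and 138 CPM in 4n-whole. They had 141, 137, 151 and 200 CPM in 4n-bottom, and mice 2, 3 and 4 had 137, 147 and 133 CPM in 4n-top. The only 4n library above any 2n-whole library was 4n-bottom of mouse 4, at 200 CPM against 195 CPM in 2n-whole of mouse 2. Within mice the 4n libraries held 41.4% to 70.4% of the 2n-whole level. The log2 fold change was -1.02 ± 0.10 in 4n-whole, -0.70 ± 0.10 in 4n-bottom and -0.90 ± 0.12 in 4n-top.

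**Figure D1:**
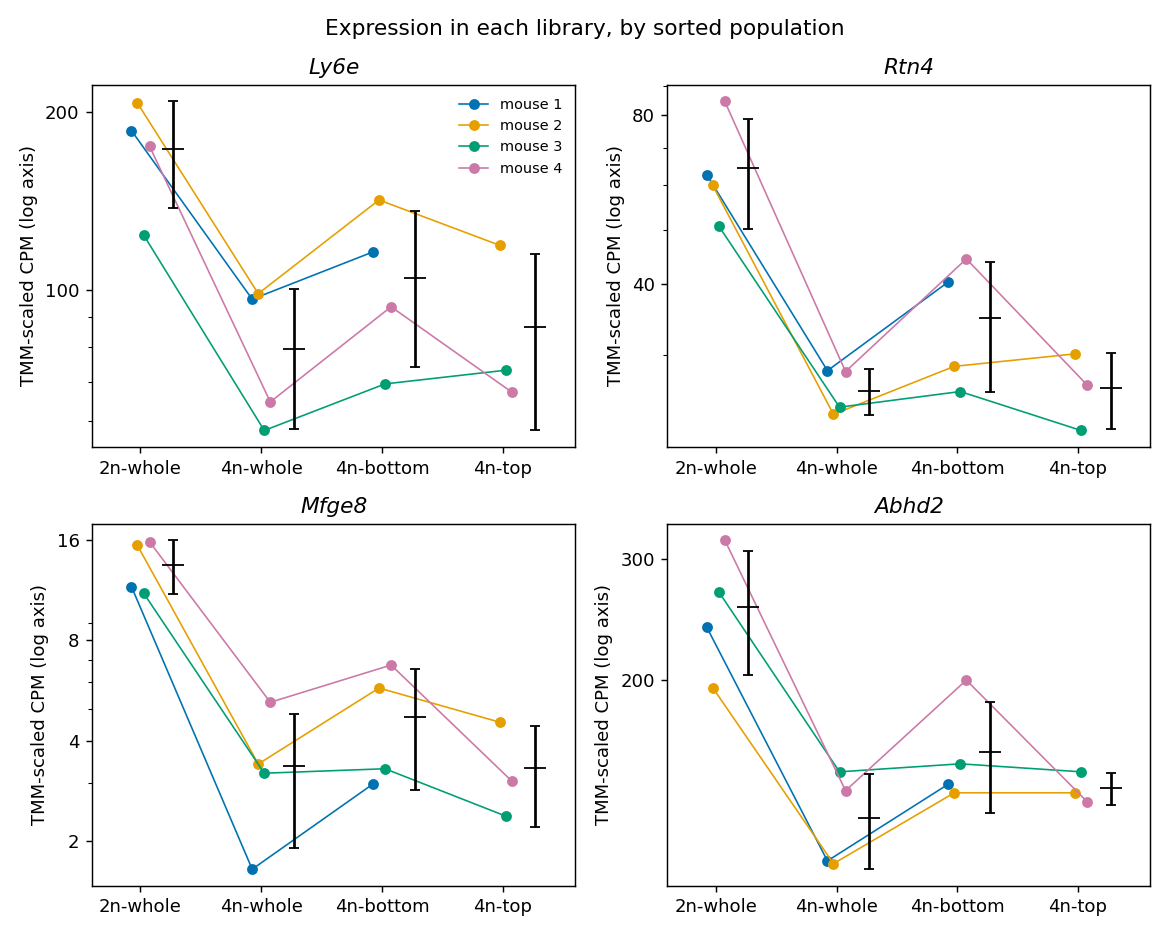
Expression of Ly6e, Rtn4, Mfge8 and Abhd2 (TMM-scaled CPM, log axis) in each library of the 4 sorted populations, with lines joining libraries of the same mouse, and black bars showing the mean ± SD (n = 4, or 3 for 4n-top). Every line falls from 2n-whole to 4n-whole, and for Rtn4 and Mfge8 no 4n library reaches the lowest 2n-whole library (50.8 and 11.1 CPM). This is the direction on which the genes were selected.

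Divided by the summed exon length of each gene, the 4 genes took another order than by CPM. Ly6e had 38.0 ± 7.77 CPM per kb (SD, n = 4) in 2n-whole and Abhd2, whose exons span 15.671 kb against 4.553 kb for Ly6e, had 16.3 ± 3.36. Rtn4 had 8.21 ± 1.82 and Mfge8 2.83 ± 0.521 CPM per kb. In 4n-whole the same order held for the means, with 17.4 ± 4.64 for Ly6e, 8.01 ± 1.28 for Abhd2, 3.30 ± 0.311 for Rtn4 and 0.707 ± 0.307 for Mfge8. All exons of all annotated transcripts were counted in these lengths, and the length in use in hepatocytes can be shorter.

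Among the 4n populations, 4n-bottom had the highest mean for each of the 4 genes, and the order of 4n-whole and 4n-top was not the same in all. The mean CPM in 4n-bottom was 105 ± 30.9 for Ly6e, 34.8 ± 9.02 for Rtn4, 4.70 ± 1.85 for Mfge8 and 157 ± 29.0 for Abhd2 (SD, n = 4). It was lowest in 4n-whole for Ly6e (79.4 ± 21.1), Rtn4 (25.9 ± 2.44) and Abhd2 (126 ± 20.0). As 4n-top and 4n-bottom are parts of the tetraploid gate, a mixture of both would lie between them. Why the 4n-whole means lay below both was not tested. For Mfge8, 4n-top (3.32 ± 1.11, n = 3) was lowest, next to 4n-whole (3.37 ± 1.46, n = 4). The 4n-top means lack mouse 1, in which Mfge8 was lowest. Within mice, 4n-whole was below 4n-top in 3 of 3 for Ly6e and in 1 of 3 each for Rtn4 and Mfge8. For Abhd2 it was at 79.3% to 104% of the 4n-top level. From 4n-bottom downwards every neighbouring pair of populations overlapped in every gene. Only the step from 2n-whole to 4n-bottom was free of overlap, and only for Rtn4 and Mfge8. Selection of the genes as higher in 2n-whole on these same libraries favours such a gap. How many of all genes tested show one was not counted.

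The populations of the tetraploid gate were then compared with each other, with edgeR's quasi-likelihood test and Benjamini-Hochberg adjustment over all 17488 genes. In 4n-top against 4n-bottom, the comparison of cells enriched for 1 and for 2 nuclei, 0 of the 4 genes was called, while 2 genes of all those tested were (0.0114%), Csad and Glul. The log2 fold changes were -0.20 ± 0.11 for Ly6e, -0.34 ± 0.14 for Rtn4, -0.62 ± 0.25 for Mfge8 and -0.20 ± 0.11 for Abhd2, with an adjusted p of 1 for each. Rtn4 and Mfge8 had an unadjusted p under 0.05, as had 488 of the 17488 genes tested. Within mice, Mfge8 was lower in 4n-top than in 4n-bottom in 3 of 3 mice, at 44.9% to 79.0% of its level there. Ly6e and Rtn4 were lower in 2 of 3 mice, and Abhd2 was at 66.3% to 99.7% of its 4n-bottom level.

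The comparison of 4n-whole with 4n-bottom sets the tetraploid gate against a part of it. The 4 genes were lower in 4n-whole in 4 of 4 mice each. Yet 0 of the 4 was called, against 1 gene of all those tested (0.00572%), which was Csad. The log2 fold changes were -0.40 ± 0.10 for Ly6e (adjusted p = 0.3134), -0.40 ± 0.12 for Rtn4 (0.5976), -0.48 ± 0.22 for Mfge8 (0.8819) and -0.32 ± 0.10 for Abhd2 (0.6355). All 4 had an unadjusted p under 0.05, as had 974 of the 17488 genes tested. Their median log2 fold change was -0.40, beside -0.007 over all genes, whose median change regardless of direction was 0.192. After ComBat-seq and DESeq2, the adjusted p of Ly6e was 0.01693, with a fold change that stayed under the 0.5 threshold. Over the other alternatives the adjusted p-values of the 4 genes in the comparisons between 4n populations were between 0.05367 (Ly6e, DESeq2 with the block) and 1. In 4n-whole against 4n-top, 0 of the 4 genes and 0 of all genes (0%) were called by edgeR, 700 genes had an unadjusted p under 0.05 and DESeq2 with the same block called 40, none of them among the 4. The log2 fold changes there were -0.19 ± 0.11 for Ly6e, -0.06 ± 0.14 for Rtn4, 0.14 ± 0.25 for Mfge8 and -0.12 ± 0.11 for Abhd2.

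**Figure D2:**
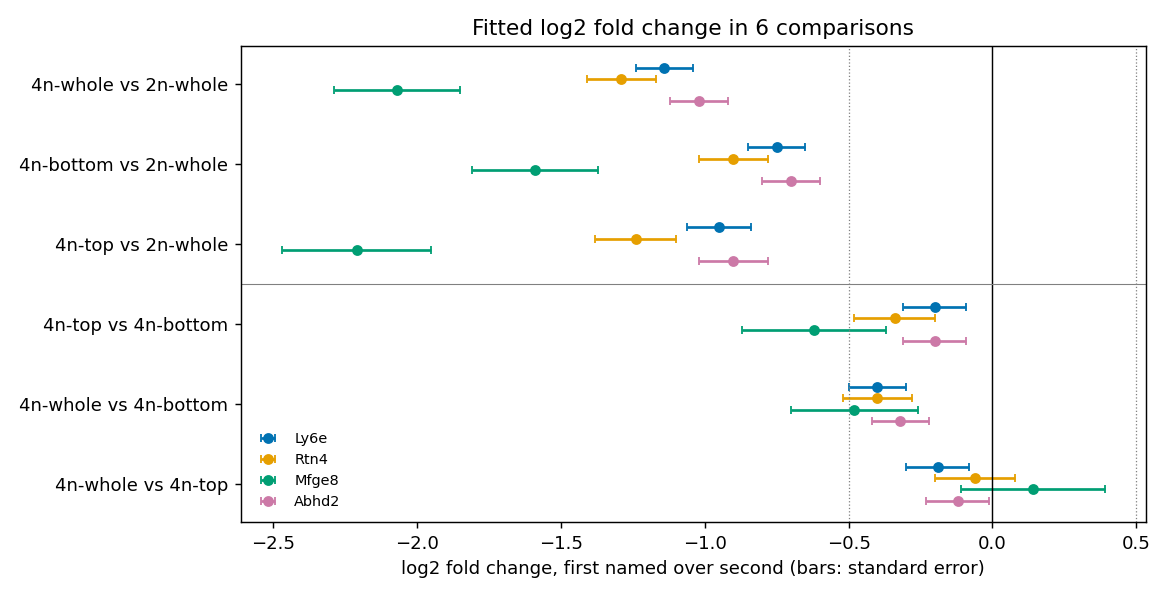
Fitted log2 fold change (x axis, first named population over the second, bars showing the standard error) of the 4 genes in 6 comparisons, dotted lines marking the threshold of 0.5. The upper 3 comparisons, on which the genes were selected, lie between -2.21 and -0.70, and the lower 3, among 4n populations, between -0.62 and 0.14.

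Across all genes, 34 (0.194%) were called lower in each of the 3 comparisons with 2n-whole, which share the 2n-whole libraries. Of those tested, 302 (1.73%) were called lower in 4n-whole, 91 (0.52%) in 4n-top and 40 (0.229%) in 4n-bottom. The 34 genes comprised 11 genes of the mitochondrial genome and 23 nuclear genes, among them the 4 described here, whose presence follows from how they were selected. By mean log2 CPM, Abhd2 ranked 2 among the 23 nuclear genes, Ly6e ranked 3, Rtn4 ranked 6 and Mfge8 ranked 19. By fold change in 4n-whole, Mfge8 ranked 3 from the largest decrease, Rtn4 10, Ly6e 16 and Abhd2 19. The other 19 were Adamts1, Aldh1b1, Apoa4, Arhgap10, Cd36, Cib3, Fgfr1, Gm19619, Hes1, Inhba, Itih5, Klf6, Mup21, Nid1, Obp2a, Setd7, Spp1, Steap2 and Ugt2b38. Just outside the threshold lay Mup20, a major urinary protein, with -0.48 ± 0.10 in 4n-bottom, and just inside it Aldh1b1, a mitochondrial aldehyde dehydrogenase gene, with -0.61. Of the 4 genes described, Abhd2 lay nearest to it, with -0.70 ± 0.10 in the same comparison. The median log2 fold change of the 4 genes was -1.22 in 4n-whole, -0.82 in 4n-bottom and -1.09 in 4n-top, against medians of -0.007, 0.005 and 0.0 over all genes.

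Mice differed in these genes in ways that the 4 genes shared only in part. With the population means removed, Ly6e was above the average in mouse 1 (0.21 on the log2 scale) and mouse 2 (0.41) and below it in mouse 3 (-0.40) and mouse 4 (-0.16). Abhd2 took the opposite sides in the same mice, with -0.14, -0.19, 0.10 and 0.20. Mfge8 was lowest in mouse 1 (-0.55), below the average in mouse 3 (-0.26) and highest in mouse 4 (0.38). Rtn4 was lowest in mouse 3 (-0.26) and highest in mouse 4 (0.24). The overlaps of Ly6e and Abhd2 between 2n-whole and 4n libraries were thus between mice and never within one.

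The other genes of each family were mostly not called in 4n-whole against 2n-whole. Of all genes tested, 3.47% were called there, 0.463% in 4n-bottom and 0.961% in 4n-top. Few calls or none are therefore likely in any list as short as this and those that follow, and they do not set the 4 genes apart from their families. Of 6 other tested genes of the LY6 family, 0 was called in any comparison. The complement regulator Cd59a had 37.7 ± 4.46 CPM in 2n-whole and 29.9 ± 8.66 in 4n-whole (log2 fold change -0.35 ± 0.14, adjusted p = 0.1572). Of 29 genes that make or attach GPI anchors, which hold Ly6e on the membrane, 1 rose and 2 fell in 4n-whole. Dpm3, a subunit of dolichol-phosphate mannose synthase, rose by 0.74 ± 0.18 (adjusted p = 0.01434). Pigx, of the first mannosyltransferase, fell by 0.87 ± 0.21 (adjusted p = 0.01464), and Pgap1, an inositol deacylase, fell by 0.63 ± 0.17 (adjusted p = 0.0261). The median over the 29 genes was -0.04, and none was called in 4n-bottom or 4n-top.

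Of 26 interferon-stimulated genes, the group in which Ly6e is often counted, 1 rose and 3 fell in 4n-whole, and the median was -0.07. B2m, the light chain of MHC class I, fell by 0.87 ± 0.14 (adjusted p = 0.000355), from 807 ± 81.7 CPM in 2n-whole to 452 ± 143 CPM. Ifitm3 and Ifitm2, which encode small membrane proteins that hinder viral entry, fell by 0.54 ± 0.12 (adjusted p = 0.006309) and by 0.98 ± 0.25 (adjusted p = 0.01924). Bst2, which encodes tetherin, rose by 0.52 ± 0.12 (adjusted p = 0.012). None of the 26 was called in 4n-bottom or 4n-top.

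Of 12 other tested genes that shape the tubular endoplasmic reticulum, 0 was called and the median was -0.26 in 4n-whole. Reep6, a curvature protein, had 783 ± 83.2 CPM in 2n-whole and 599 ± 91.2 CPM in 4n-whole, and its log2 fold change of -0.38 ± 0.11 (adjusted p = 0.03269) was under the threshold on the fold change. Reep3 (-0.41 ± 0.11, adjusted p = 0.03093) and the membrane-fusing GTPase Atl2 (-0.37 ± 0.10, adjusted p = 0.02206) lay on the same side. Of 11 tested genes for receptors and partners of reticulon 4, 1 was called. This was Sptssa, which encodes a small subunit of serine palmitoyltransferase, the enzyme that opens sphingolipid synthesis, and it fell by 0.74 ± 0.18 (adjusted p = 0.01562). Nus1, which encodes the Nogo-B receptor subunit of cis-prenyltransferase, had -0.44 ± 0.12 (adjusted p = 0.03523).

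Of 18 other tested genes for bridging and uptake of apoptotic cells, 2 fell in 4n-whole. Cd36, a scavenger receptor and fatty acid carrier, had 34.8 ± 7.02 CPM in 2n-whole and 16.7 ± 8.01 CPM in 4n-whole. It fell by 1.14 ± 0.20 in 4n-whole (adjusted p = 0.000843), by 1.30 ± 0.20 in 4n-bottom (adjusted p = 0.000696) and by 1.23 ± 0.23 in 4n-top (adjusted p = 0.00211). Elmo1, an adaptor of the uptake machinery, fell by 1.08 ± 0.32 in 4n-whole (adjusted p = 0.04333), from 4.50 ± 1.68 CPM to 2.42 ± 1.63 CPM. Itgav, the integrin alpha chain to which the Mfge8 protein binds, had 58.5 ± 4.33 CPM in 2n-whole and 44.5 ± 8.68 CPM in 4n-whole (log2 fold change -0.40 ± 0.11, adjusted p = 0.02491), which is under the threshold on the fold change.

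Of 17 other tested genes of the ABHD family, 0 was called in any comparison, and the median log2 fold change was -0.11 in 4n-whole. Abhd3, a phospholipase of the family, had 57.9 ± 5.32 CPM in 2n-whole and 48.5 ± 6.61 CPM in 4n-whole. Of 11 other hydrolases of glycerolipids and endocannabinoids 0 was called, with a median of -0.04. Ces1d, a carboxylesterase, was the nearest, with 0.36 ± 0.08 in 4n-whole (adjusted p = 0.005436) and 0.46 ± 0.09 in 4n-top (adjusted p = 0.002474), both higher in 4n.

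**Figure D3:**
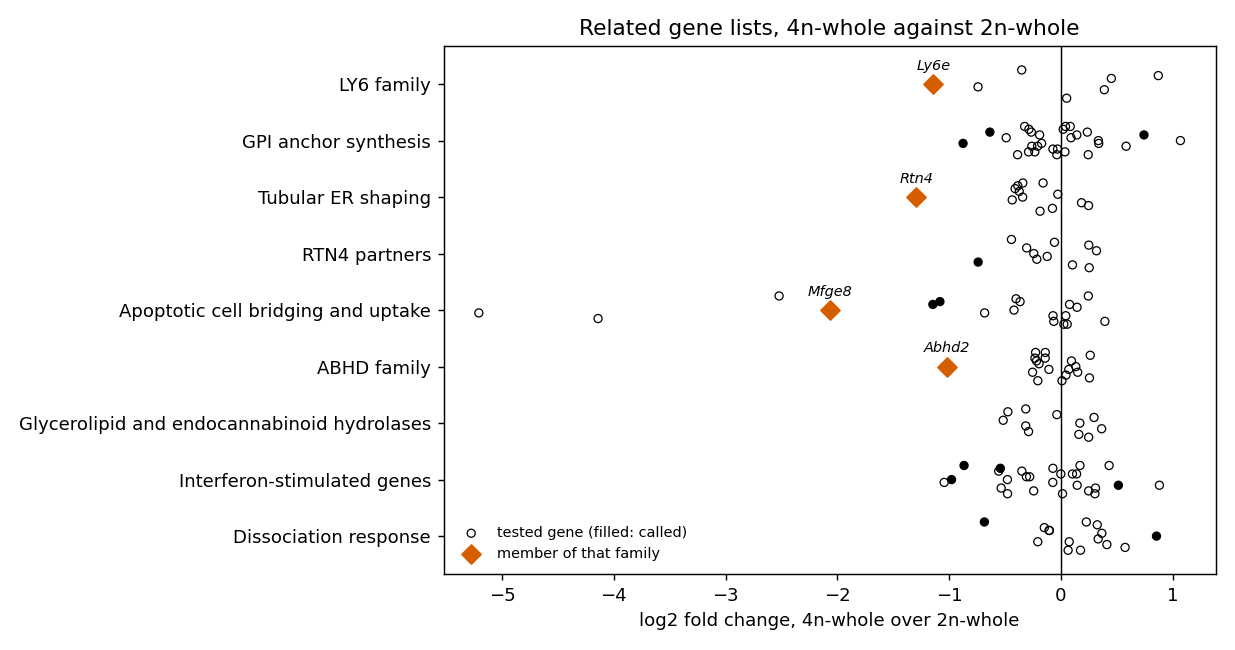
Log2 fold change of 4n-whole over 2n-whole (x axis) for the tested genes of 9 related lists, each circle standing for 1 gene, filled where the gene was called, and orange diamonds showing the 4 selected genes in their families. The selected genes lie between -2.07 and -1.02, and the 12 filled circles between -1.14 and 0.86. The 3 open circles furthest to the left are Edil3 (-5.21), Itgb3 (-4.14) and Axl (-2.52), which did not pass the test.

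Over these lists and one of genes that respond to tissue dissociation, 12 genes were called in 4n-whole against 2n-whole. Of the 15 dissociation genes tested, the heat-shock gene Hspa1b rose by 0.86 ± 0.21 (adjusted p = 0.01464) and the transcription factor gene Klf6 fell by 0.68 ± 0.16 (adjusted p = 0.012). Klf6 also fell in 4n-bottom (-0.76 ± 0.16) and in 4n-top (-1.32 ± 0.19), and Hspa1b also rose in 4n-top (1.09 ± 0.23). Per the methods of the study, 2n cells were collected at a higher centrifugal force than 4n cells, so that handling and ploidy cannot be told apart. Without the mouse as a block 0 of the 12 genes was called, without mouse 4 there were 4, without mouse 2 there were 7, with a covariate for non-parenchymal markers 4, and with one for lobular position 1, Cd36.

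The neighbourhoods within 200 kb of the genes gave few expressed genes. Around Ly6e, 13 other protein-coding genes are annotated, many of them of the LY6 cluster, and 0 passed the filter, the highest reaching 0.422 CPM in any library. Around Rtn4, 6 of 7 protein-coding genes were tested and 0 was called, beside 3.47% of all genes tested in 4n-whole against 2n-whole. Rps27a, a ribosomal protein gene 144.2 kb away, had -0.23 ± 0.10 in 4n-whole (adjusted p = 0.2087), and Mtif2, a mitochondrial translation factor gene, had -0.22 ± 0.11 (adjusted p = 0.2942). Between and around Mfge8 and Abhd2, the genes Hapln3 and Acan beside Mfge8 did not pass the filter, with at most 0.493 CPM. Polg, the mitochondrial DNA polymerase gene 80.7 kb from the far end of Abhd2, lay on the other side, with 0.45 ± 0.13 in 4n-whole (adjusted p = 0.03754), under the threshold on the fold change.

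Annotated genes overlap each of the 4 genes. Gm44639, an unverified transcript model inside Abhd2 on the same strand, was called lower in 4n-whole (-1.55 ± 0.30, adjusted p = 0.002329), and as it shares its place with Abhd2 its counts are uncertain. The strand setting of the counting was not given in the sources used here, so reads of Rtn4 and of Eml6, which overlaps it on the other strand, may not be told apart. Eml6 had at most 10.0 CPM in any library, below the lowest value of Rtn4 (22.0 CPM).

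Libraries also differed in zonation, and this moved with ploidy. A score for lobular position, the mean log2 CPM of 14 periportal less that of 15 pericentral landmark genes, was between 6.575 and 7.595 in 2n-whole and between 4.504 and 6.639 in the 4n libraries. Of the 15 pericentral landmarks, 13 were called higher in 4n-whole than in 2n-whole, 8 in 4n-bottom and 10 in 4n-top, with median log2 fold changes of 1.60, 0.98 and 1.34. Of the 14 periportal landmarks, 3, 0 and 1 were called lower. With the score as a covariate, the log2 fold change in 4n-whole was -1.09 ± 0.27 for Ly6e, -0.93 ± 0.31 for Rtn4, -1.14 ± 0.54 for Mfge8 and -0.45 ± 0.25 for Abhd2. In the same gene order it was -0.71 ± 0.19, -0.68 ± 0.21, -1.01 ± 0.37 and -0.34 ± 0.17 for 4n-bottom, and for 4n-top -0.91 ± 0.22, -0.97 ± 0.26, -1.52 ± 0.44 and -0.46 ± 0.20. All of these values stayed negative, which is the direction on which the genes were selected. Those of Ly6e moved least and those of Mfge8 and Abhd2 most. This fit left 1 gene of all those tested called in 4n-whole, 1 in 4n-bottom and 4 in 4n-top. As the score moved with ploidy, lobular position and ploidy cannot be told apart in it.

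A pair of libraries with nearly the same score can be set side by side, chosen after their values were seen. The 4n-top library of mouse 2 scored 6.639 and the 2n-whole library of mouse 4 scored 6.575. Ly6e was at 119 and 175 CPM in these, Rtn4 at 30.1 and 84.6, Mfge8 at 4.55 and 15.8 and Abhd2 at 137 and 320. These libraries come from different mice, and the mouse and the ploidy cannot be told apart in this pair. Among the 2n-whole libraries, that of mouse 4 was the highest for Rtn4, Mfge8 and Abhd2. The genes were selected as higher in 2n-whole on these same libraries, so the pair is a description only.

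**Figure D4:**
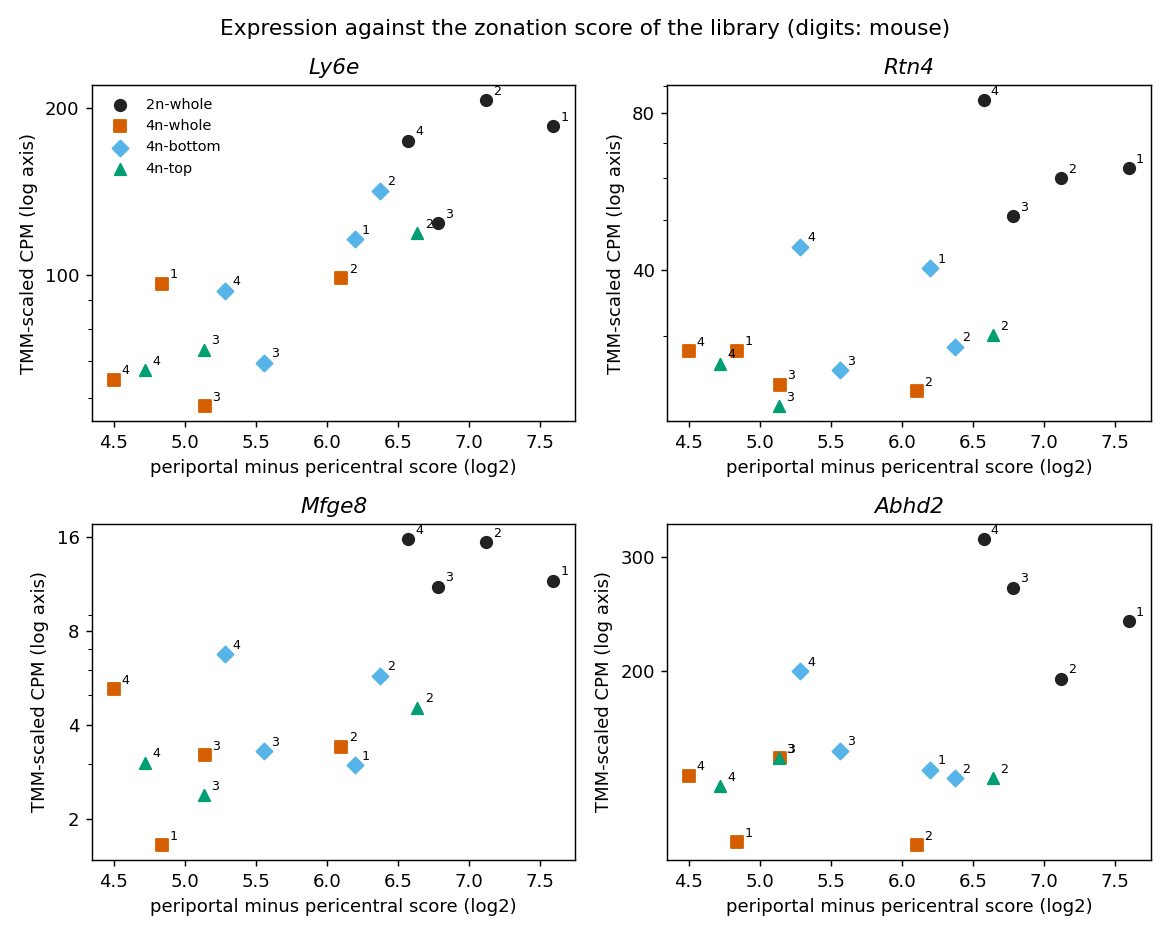
Expression of the 4 genes (TMM-scaled CPM, log axis) against the score for lobular position of the library (periportal less pericentral landmarks, log2 scale), with symbols for the population and digits for the mouse. The 2n-whole libraries lie at scores from 6.575 to 7.595. The one 4n library inside that range, 4n-top of mouse 2, has lower levels of all 4 genes than any 2n-whole library. This is the direction on which the genes were selected.

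Markers of most other liver cells were low in all libraries. The summed CPM of 11 endothelial markers was between 18.5 and 31.7 in 2n-whole and between 6.33 and 38.2 in the 4n libraries. For 11 Kupffer cell markers it was between 0.764 and 10.0 in 2n-whole and between 0.625 and 4.44 in 4n, and for 11 stellate cell markers between 4.14 and 7.37 and between 1.83 and 5.03. All of these ranges overlapped, and no gene of these 3 lists was at 0 in every library. The tested genes of the lists nevertheless had medians below 0 against 2n-whole, as the 4 genes had. For 11 endothelial genes the median log2 fold change was -0.80 in 4n-whole, -0.94 in 4n-bottom and -1.16 in 4n-top, and the phosphatase gene Ptprb was called lower in 4n-whole (-1.03 ± 0.30, adjusted p = 0.03875). For 8 Kupffer cell genes the medians were -1.84, -1.54 and -3.32 and for 6 stellate cell genes -1.70, -0.09 and -2.15, with 0 called. Genes of the Kupffer and stellate lists had few counts, so the size of these medians is uncertain. Vsig4, for example, averaged 0.608 CPM in 2n-whole and 0.0 CPM in 4n-whole, with a log2 fold change of -7.66 ± 2.29. For 9 leukocyte markers the sum reached 1.18 CPM at most, with S100a8 and S100a9 at 0 in every library. For 5 erythroid markers it was between 52.7 and 106, nearly all of it Alas2, with Hbb-bs and Hba-a2 at 0.

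The cholangiocyte list alone did not overlap, with a summed CPM of 7 genes between 34.7 and 47.4 in 2n-whole and between 16 and 32.0 in the 4n libraries, most of it Sox9. Krt19 averaged 0.717 ± 0.519 CPM in 2n-whole and 0.0799, 0.224 and 0.0 CPM in 4n-whole, 4n-bottom and 4n-top. The 4 tested genes of the list had median log2 fold changes of -2.81, -2.06 and -4.96 in these populations against 2n-whole. Spp1 fell by 2.81 ± 0.38 in 4n-whole (adjusted p = 2e-05) and Sox9 by 0.62 ± 0.12 (adjusted p = 0.00229). The part of such cells in the levels of the 4 genes was not tested. A covariate was made of the mean of the 25 tested endothelial, Kupffer and stellate markers, which holds no cholangiocyte marker. With it, the log2 fold changes in 4n-whole were -1.04 ± 0.11 for Ly6e, -1.22 ± 0.14 for Rtn4, -2.19 ± 0.25 for Mfge8 and -0.96 ± 0.12 for Abhd2. Those without it were -1.14, -1.29, -2.07 and -1.02. In 4n-top, in the same gene order, they were -0.79 ± 0.14, -1.11 ± 0.18, -2.40 ± 0.32 and -0.80 ± 0.15, beside -0.95, -1.24, -2.21 and -0.90 without it.

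The genes most like each of the 4 were ranked by Pearson correlation of log2 CPM over the 15 libraries, among 7369 genes with a mean log2 CPM of at least 3. With mouse effects removed, the 4 genes correlated with each other at 0.92 (Ly6e with Mfge8) to 0.98 (Rtn4 with Abhd2), which their selection on the same populations sets in large part. Nearest to Ly6e were Ugt2b38 (0.97), Hes1 (0.97) and Apoa4 (0.95). Nearest to Rtn4 were Itih5 (0.97), Mup20 (0.96) and Apoa4 (0.96). Setd7 (0.94), App (0.93) and Pdpk1 (0.92) were nearest to Mfge8, and Setd7, Apoa4 and Fgfr1 (0.96 each) were nearest to Abhd2. These libraries share mice and populations, so the values are descriptions only.

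With the population means removed as well, so that differences between populations no longer enter, the 4 genes were less alike. Rtn4 and Abhd2 correlated at 0.75, Ly6e and Abhd2 at 0.66, and the neighbours Mfge8 and Abhd2 at 0.63. Ly6e and Rtn4 correlated at 0.57, Rtn4 and Mfge8 at 0.31, and Ly6e and Mfge8 at 0.05. The nearest genes were then others, namely Dctn5 (0.97), Tmem214 (0.95) and the acute-phase gene Serpina3n (0.95) for Ly6e. They were Serpina3k (0.95), Pglyrp2 (0.94) and the lysine-degrading enzyme gene Aass (0.93) for Rtn4. For Mfge8 they were Sdhb (0.91), Dhx40 (0.88) and Rnf4 (0.87), and for Abhd2 the urea cycle gene Ass1 (0.92), Prps1 (0.92) and the gluconeogenic gene Fbp1 (0.91). Ass1 is also among the periportal landmarks used for the lobular score. Removing population and mouse effects leaves little free variation in 15 libraries, and these genes are the highest of 7369 ranked. High values can arise from such picking alone, so they are descriptions only and no link between the genes was tested.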

How the data were processed

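Sorted hepatocytes were profiled by RNA-seq (20 ng of total RNA, a SMART-Seq stranded kit). The authors aligned reads with STAR 2.7.11a to GRCm39 and counted them per gene with featureCounts, as the submitters' processing notes list, and deposited raw counts for 15 libraries. The study left out the 4n-top library of mouse 1 for RNA quality, and it is not analysed here. Of the 55984 symbols, 55865 matched GENCODE M39. Among counts of 1 to 10, 74.2% to 81.4% were even, so that both mates of a pair may have been counted. The detection limit covers counting only. Standard errors came from the fitted model, which estimates the spread between libraries, and SDs are between mice.

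From the counts, edgeR 4.0.16 in R 4.3.3 was fitted to all libraries with TMM scaling, its default filter (minimum count 10, minimum total 15), population as factor and mouse as block, since the study adjusts for individual mice and the labels number them. Libraries of the same mouse correlated at 0.158 on average after population means were removed (0.084 to 0.227, 21 pairs). Genes were called at an adjusted p (Benjamini-Hochberg, 17488 genes) below 0.05 and a log2 fold change of more than 0.5 in either direction. Log2 CPM used a prior count of 2. Alternatives used DESeq2 1.42.0, ComBat-seq (sva 3.50.0), limma 3.58.1 for removing mouse effects, and models described with the results. The methods were tested on simulated data.

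The 4 genes, the gene lists and the tests were chosen with earlier results of these data known. Besides the 4 genes, the text names from each list up to 3 genes, those of smallest p in 4n-whole against 2n-whole, list genes called repeatedly, tested neighbours within 200 kb and the 3 most correlated genes. Ifitm2, Edil3, Itgb3, Axl, Csad and the genes lower in all comparisons with 2n-whole were named after their values were seen. Lists of zonation and cell type markers are mostly given as counts.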

Additional observations from a re-analysis of the deposited data

How the results depend on the processing

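In the comparisons between 4n populations, 0 of the 4 genes was called under every one of 11 alternatives, including each mouse left out in turn. Of 132 log2 fold changes of the 4 genes there, 127 kept their direction and 5 reversed, all in 4n-whole against 4n-top, where the values are near 0. With the covariate for lobular position Rtn4 was at 0.03 and Abhd2 at 0.01. With each mouse left out in turn, Rtn4 ranged from -0.14 to 0.13 (without mouse 2), Abhd2 from -0.21 to 0.02 (without mouse 2) and Mfge8 from -0.13 (without mouse 4) to 0.44. Against 2n-whole, 132 of 132 values stayed negative, a direction that the selection on these same libraries sets in large part. Of them, 8 moved by more than the spread between mice, all with the covariate for lobular position. Under that covariate the median of the 4 genes was -1.01 in 4n-whole and -0.70 in 4n-bottom.

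Counts over all genes moved far more. Without the replicate block, in place of the pairing by mouse, 40, 0 and 2 genes were called in 4n-whole, 4n-bottom and 4n-top against 2n-whole, and 0 in 4n-top and 0 in 4n-whole against 4n-bottom. DESeq2 with the block called 143 in 4n-bottom and 329 in 4n-top against 2n-whole, 49 in 4n-top and 44 in 4n-whole against 4n-bottom, and 40 in 4n-whole against 4n-top. ComBat-seq followed by DESeq2 called, in these orders, 1166, 279 and 551 against 2n-whole, 21 and 30 against 4n-bottom, and 4. With no filter on low counts there were 145 in 4n-bottom and 261 in 4n-top against 2n-whole, 25 and 45 against 4n-bottom, and 5 in 4n-whole against 4n-top. DESeq2 size factors gave 3 in 4n-whole against 4n-bottom. The covariate for non-parenchymal markers gave 404, 43 and 58 against 2n-whole and 5 in 4n-whole against 4n-bottom, and that for lobular position gave 1, 1 and 4 and then 0. Leaving out 1 mouse gave 244 (without mouse 4) to 1025 (without mouse 3), 49 to 111 and 98 to 238 against 2n-whole, 0 to 29 and 0 to 65 for 4n-top and 4n-whole against 4n-bottom, and 0 to 1 for 4n-whole against 4n-top. The causes were not tested. Mfge8, with 61 to 551 counts, had the widest standard errors of the 4 genes.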
